A study of Drosophila melanogaster with 2 samples.

Results

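The 7 genes described here are wg and Wnt4, which encode secreted Wnt ligands, fz, which encodes a Wnt receptor, nkd, which encodes an intracellular inhibitor of the pathway, the paired Pax genes gsb and gsb-n, and the T-box gene mid. They were chosen by name, out of 13945 protein-coding genes of the Ensembl annotation, and each has 1 annotated start site. The data are peak lists from chromatin immunoprecipitation and sequencing in whole Drosophila melanogaster embryos, aged 0 to 12 hours and of mixed sex, of a transgenic line that stably makes the E(spl)m5-HLH repressor with GFP at its C terminus. There is 1 group of 2 biological replicates, numbered 3 and 4, and both carry the same fusion. The place, copy number and promoter of the inserted fusion are not stated in the labels, and no list from untagged embryos was used. The free-text labels call both samples input controls while their assay and antibody fields name an immunoprecipitation, and the values are given on the latter reading. The lists hold 30000 candidates per replicate, as many for both sets of reads pooled, and 2487 peaks in the authors' list thresholded on reproducibility (thresholded peaks). That list equals the 2487 strongest pooled candidates. Not every peak in it was strong in a replicate, as 100 were in the top 2487 of neither. The lists do not give read depth, which is unknown, and with no second group there is nothing to test between conditions, so all that follows is description.

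Wnt ligands bind Frizzled receptors, which signal through Dishevelled to stop the degradation of Armadillo, so that Armadillo can act in the nucleus with the factor Pangolin. In the embryonic epidermis wg is made in a row of cells in each segment, and nkd is a feedback inhibitor that the pathway itself switches on. The gsb product sustains wg transcription there, gsb-n acts mainly in the nervous system, and mid acts in segment patterning, in the nervous system and in the heart. The tagged protein is a transcriptional repressor of the basic helix-loop-helix class, made in response to Notch, and proteins of its family are known to bind E boxes such as CACGTG.

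Genes with a thresholded summit no more than 1 kb from the start site were counted as bound, and a gene's neighbourhood was taken as its span plus 10 kb on either side of the start site. Of the 7 genes, 1 was bound, nkd, beside 11.9% of protein-coding genes (1653 of 13945). A thresholded summit lay somewhere in the neighbourhood of 4 genes, Wnt4, fz, nkd and mid, and of none of wg, gsb and gsb-n, where 37.2% of protein-coding genes (5192) had one. In all, 8 distinct thresholded summits were found, 4 around nkd, 2 around fz and 1 each around Wnt4 and mid, and of these only the nkd start site peak was within 1 kb of the start site of a member. The strongest was not at a promoter but deep in fz.

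**Figure D1:**
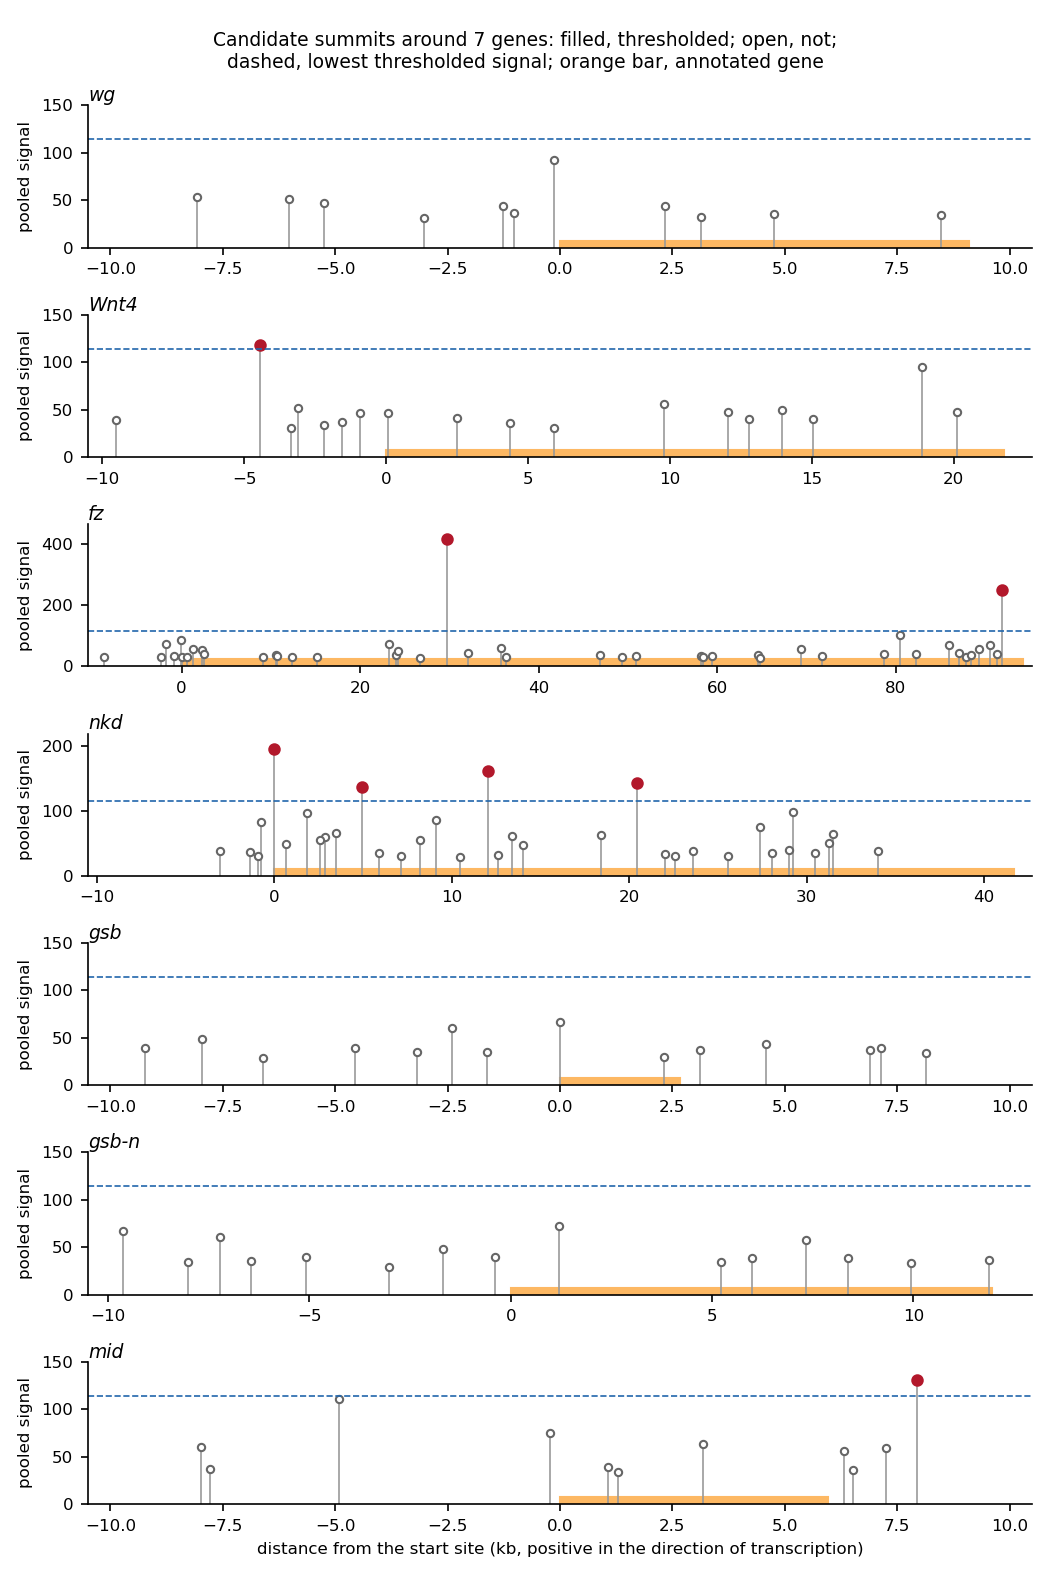
Pooled signal of each candidate summit (vertical axis, the authors' unit) against its distance from the start site of each of 7 genes in kb (horizontal axis, positive in the direction of transcription). Filled points are thresholded, the dashed line is the lowest thresholded signal of 114, and the orange bar is the annotated gene; filled points appear for Wnt4, fz, nkd and mid, and the tallest, at 414, is 29.7 kb into fz.

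All 7 neighbourhoods were dense in weak candidates. They held from 4.22 candidate summits per 10 kb at fz to 7.0 at gsb, where the median over protein-coding genes was 2.50 and the upper quartile 4.00. A candidate of any strength lay within 1 kb of the start site of all 7, beside 57.5% of protein-coding genes (8021). For all 7 the strongest of these lay upstream of the start site, as did that of 66.8% of the 8021 genes. The side was not always clear. At gsb the distance was 7 bp, and at nkd it was 20 bp, with the replicate 4 summit 2 bp inside the gene. At Wnt4 a candidate 57 bp into the gene had nearly the same signal, 46.5 beside 46.9. Few of the candidates were strong. Of 139 distinct candidates, 8 were thresholded (5.76%, beside 8.29% of all pooled candidates), and their median pooled signal was 39.7 beside 42.1 for the whole list. By position, 83 lay in introns, 45 between genes, 4 in 5' UTRs, 4 in coding exons, 2 in 3' UTRs and 1 in a non-coding exon.

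The ligand genes wg and Wnt4 stand back to back on chromosome 2L with 29987 bp and no other gene between them, and wg is followed by Wnt6 and Wnt10 on its own strand. wg (FBgn0284084) lies at 2L 7307159 to 7316265 on the forward strand of dm6. It had 11 candidates with pooled signals from 31.6 to 92.4 (median 43.8), and none was thresholded. The strongest stood 143 bp upstream of the start site, at rank 3679 of the pooled list. Both replicates had a candidate within 100 bp of it, with a signal of 43.2 (rank 5349) in replicate 3 and 51.0 (rank 3275) in replicate 4, so it missed the 2487 strongest in each. The other candidates of wg had pooled ranks of 9853 or weaker. The nearest thresholded summit to the wg start site was 25.5 kb upstream, and it is the one described next for Wnt4.

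Wnt4 (FBgn0010453) lies at 2L 7255419 to 7277171 on the reverse strand and had 18 candidates. Its thresholded summit, at 2L 7281622, stood 4451 bp upstream of the start site, between Wnt4 and wg. The pooled signal was 119 at rank 2340, close to the end of the list. The signal was 59.1 in replicate 3 (rank 2929) and 59.2 in replicate 4 (rank 2488), and this was the single thresholded peak of the 8 that fell outside the 2487 strongest of both replicates. Both replicates had a candidate there, 10 bp from the pooled summit in replicate 3 and 21 bp from it in replicate 4. Of the 18 candidates, the next strongest, 18.9 kb into the gene in intron 1, stood 787 bp from the start site of CG31909, a gene within that intron. Its pooled signal was 95.1 at rank 3493, with ranks of 6162 in replicate 3 and 2156 in replicate 4. Near the Wnt4 start site the signal was weak. The strongest candidate within 1 kb, 909 bp upstream, was at rank 12322, and one 57 bp into the gene was at rank 12530. The windows that reach 100 bp to each side of the wg and Wnt4 summits are shown because they hold the strongest candidate of each of these 2 genes; both are read on the forward strand of dm6, and capitals mark any of the motifs searched on either strand, which were the E box CACGTG, the related family boxes CACGCG and, with any base at N, CACNAG, the proneural E box CAGCTG, the Su(H) site, the Pangolin core CTTTGAT, the early-zygotic element CAGGTAG and the GAGA repeat GAGAGAG.
wg promoter, chr2L:7306916-7307116: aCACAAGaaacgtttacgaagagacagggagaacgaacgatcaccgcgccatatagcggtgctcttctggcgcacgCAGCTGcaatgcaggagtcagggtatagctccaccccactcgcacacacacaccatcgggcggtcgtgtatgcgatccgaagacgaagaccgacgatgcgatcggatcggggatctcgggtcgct
Wnt4 upstream, chr2L:7281522-7281722: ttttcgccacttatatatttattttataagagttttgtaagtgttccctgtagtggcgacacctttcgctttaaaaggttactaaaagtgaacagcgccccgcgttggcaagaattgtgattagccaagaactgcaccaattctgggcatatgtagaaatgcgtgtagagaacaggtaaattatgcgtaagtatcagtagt
The wg window holds 1 CACAAG, a spelling of CACNAG that lies 96 bp before the summit, and 1 CAGCTG, the E box of proneural activators. CAGCTG occurs in 11.4% of all pooled windows and CACNAG in 22.9%, and in thresholded windows alone the shares are 16.2% and 26.3%. The Wnt4 window holds none of the motifs searched.

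The receptor gene fz (FBgn0001085) lies at 3L 14274343 to 14368639 on the forward strand, is 94.3 kb long and encodes a transmembrane protein that acts both in Wnt reception and in planar cell polarity. It had 44 candidates, with pooled signals from 29.2 to 414, of which 2 were thresholded. That is 0.192 thresholded summits per 10 kb of neighbourhood, beside 0.186 over the genome. Of the 428 protein-coding genes at least as long as nkd (41.7 kb), 22.9% held 2 or more in their span. That set includes genes much shorter than fz, and no share matched to the length of fz was computed. The strongest peak of all 7 genes had its summit at 3L 14304061, in intron 1 and 29.7 kb from the start site. Its pooled signal of 414 ranked 157 among 30000. The replicates placed it within 5 bp of each other, with a signal of 197 in replicate 3 (rank 225) and 212 in replicate 4 (rank 147). No other annotated start site was close, the nearest being that of lncRNA:CR45025 at 22.2 kb. The other thresholded summit of fz, at 3L 14366330, lay 92.0 kb from the start site in intron 4, near the end of the gene and 3377 bp from the start site of CG13481. It had a pooled signal of 248 (rank 525), with 137 in replicate 3 (rank 506) and 122 in replicate 4 (rank 556). Both intronic peaks were thus strong in each replicate.

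The fz promoter differed between the replicates. A candidate 134 bp upstream of the start site was strong in replicate 4, with a signal of 73.7 (rank 1618), and replicate 3 had none within 100 bp, its nearest lying 201 bp away. A candidate 1691 bp upstream was strong in replicate 3 instead, with a signal of 80.0 (rank 1571), and the nearest of replicate 4 was 844 bp away. In the pooled list the former ranked 4051 and the latter 5484, so neither was thresholded. Another candidate, 80.5 kb into the gene in intron 4, ranked 2259 in replicate 3 and 10844 in replicate 4, and 3109 in the pool. The window of the strongest fz peak is shown because it ranks highest of all 7 genes.
fz intron 1, chr3L:14303961-14304161: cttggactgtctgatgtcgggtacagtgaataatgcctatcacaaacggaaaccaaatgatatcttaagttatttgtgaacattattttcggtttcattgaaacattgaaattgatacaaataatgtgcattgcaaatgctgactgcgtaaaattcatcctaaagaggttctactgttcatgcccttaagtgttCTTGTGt
Its capitals mark CTTGTG, which is CACNAG read on the other strand, 97 bp from the summit and so at the edge of the window. The window holds no E box of the form CACGTG or CAGCTG, and the window of the intron 4 peak holds none of the motifs searched.

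The inhibitor gene nkd (FBgn0002945) lies at 3L 19003741 to 19045449 on the reverse strand, is 41.7 kb long and encodes a protein that binds Dishevelled. It had 34 candidates, of which 4 were thresholded, the most of the 7 genes. The neighbourhoods of 274 protein-coding genes (1.96%) held at least 4. Long genes have more room for summits. The span of nkd, which leaves out the peak at its start site, held 3, and of the 428 protein-coding genes at least as long as nkd, 57 (13.3%) held 3 or more, with a median of 0.

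The nkd peak at the start site had its summit at 3L 19045469, 20 bp upstream, with a pooled signal of 195 (rank 868). The signal was 91.5 in replicate 3 (rank 1192) and 126 in replicate 4 (rank 523), and the summits of the replicates were 63 bp apart. The other 3 thresholded summits lay in intron 1. The one 4922 bp from the start site had a pooled signal of 137 (rank 1778), with 66.2 in replicate 3 (rank 2334) and 66.9 in replicate 4 (rank 1971). The one 12.1 kb in, at 3L 19033378, had a pooled signal of 161 (rank 1256), with 102 in replicate 3 (rank 957) and 65.6 in replicate 4 (rank 2048). That summit also lies in an exon of lncRNA:CR45940, an RNA gene inside the nkd intron, and is 522 bp from its start site. The one 20.4 kb in had a pooled signal of 143 (rank 1629) and was uneven, with 94.5 in replicate 3 (rank 1122) and 41.8 in replicate 4 (rank 4719). Thus 3 of the 4 were in the top 2487 of each replicate, and the most distant was so in replicate 3 alone.

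Between the nkd start site and the summit at 4922 bp, each replicate also had strong candidates that the other lacked. In replicate 3, candidates 2675 and 2875 bp from the start site ranked 1764 and 991, with signals of 75.9 and 99.9, and the nearest candidates of replicate 4 were 244 and 444 bp away. In replicate 4, a candidate 1773 bp from the start site ranked 1491 with a signal of 76.9, and the nearest of replicate 3 was 902 bp away. None of these 3 was thresholded in the pool. The part of the nkd window that lies upstream of the start site is shown, since this is the one bound start site of the 7 genes; it is given on the forward strand, so transcription runs from right to left and starts just before its left end.
nkd promoter, chr3L:19045450-19045569: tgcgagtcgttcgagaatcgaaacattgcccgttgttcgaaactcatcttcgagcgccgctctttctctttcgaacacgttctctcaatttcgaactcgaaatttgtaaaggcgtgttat
It holds none of the motifs searched, nor do the windows of the 3 intronic summits.

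The T-box gene mid (FBgn0261963, 2L 5461639 to 5467610, forward strand) encodes a transcription factor and is closely related to H15, whose end lies 45.0 kb before it. Among 11 candidates 1 was thresholded, and it lay not at the promoter but downstream of the gene, at 2L 5469576, 7937 bp from the start site and between genes. Its pooled signal was 131 (rank 1915), with 74.2 in replicate 3 (rank 1853) and 59.3 in replicate 4 (rank 2479), so it was among the 2487 strongest of both by a small margin in replicate 4. A candidate 4926 bp upstream of the start site stood just outside the threshold, with a pooled signal of 111 (rank 2645) beside a lowest thresholded signal of 114. It had 67.3 in replicate 3 (rank 2258) and 43.0 in replicate 4 (rank 4498). The promoter candidate, 225 bp upstream, ranked 5278 in the pool and 3635 in replicate 3 (signal 52.7), and replicate 4 had none within 100 bp. Both distal windows are shown because each holds the CACGTG box.
mid downstream, chr2L:5469476-5469676: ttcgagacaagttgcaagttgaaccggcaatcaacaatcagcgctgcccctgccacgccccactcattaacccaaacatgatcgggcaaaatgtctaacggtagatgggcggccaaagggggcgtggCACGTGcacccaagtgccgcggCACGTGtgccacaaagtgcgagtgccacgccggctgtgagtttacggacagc
mid upstream, chr2L:5456613-5456813: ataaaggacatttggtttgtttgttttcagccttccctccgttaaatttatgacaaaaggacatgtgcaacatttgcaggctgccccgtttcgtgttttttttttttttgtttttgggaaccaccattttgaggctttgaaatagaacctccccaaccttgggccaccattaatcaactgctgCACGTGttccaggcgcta
The downstream window holds CACGTG at 2 places, centred 30 and 52 bp after the summit, and each is preceded by GG, which gives the longer form GGCACGTG. Of the 2487 thresholded windows, 144 (5.79%) held CACGTG, 3 held it at 2 or more places, and 32 (1.29%) held GGCACGTG. The mid window was the single thresholded one with 2 copies of GGCACGTG, and 2 of the 30000 pooled windows had as many. The search for the longer form was made after the window had been seen.

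The Pax genes gsb (FBgn0001148, 2R 25061964 to 25064643, forward strand) and gsb-n (FBgn0001147, 2R 25040383 to 25052331, reverse strand) stand back to back with 9.63 kb between them. Both encode transcription factors with a paired domain. Their neighbourhoods overlap, with 14 candidates at gsb, 15 at gsb-n and 8 shared. No candidate was thresholded, and none was among the 2487 strongest of a replicate. The strongest at gsb stood 7 bp upstream of the start site, with a pooled signal of 66.6 (rank 6509). It had 50.6 in replicate 3 (rank 3945) and 26.9 in replicate 4 (rank 11584), so it was weaker by rank in replicate 4. The strongest at gsb-n lay 1190 bp into the gene, in intron 2, with a pooled signal of 72.7 (rank 5588), 34.0 in replicate 3 (rank 8616) and 29.0 in replicate 4 (rank 9852). The gsb-n start site had a weak candidate 397 bp upstream at rank 16748, found in replicate 3 (signal 38.3, rank 6842) and not within 100 bp in replicate 4. With no depth given, a site below the threshold at these genes cannot be called absent.

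Across the 7 genes, most boxes were less frequent within 100 bp of the 139 candidates than of all pooled candidates. CACGCG lay at 3.60% beside 6.13%, CACNAG at 20.1% beside 22.9% and CAGCTG at 7.91% beside 11.4%. CACGTG alone of these boxes was above its pooled share. It lay within 100 bp of 7 of the 139 candidates (5.04%), beside 3.48% of all pooled candidates, and the difference was not tested. Of these 7, 3 were at mid, the remaining one being 7990 bp upstream of the start site (rank 7722), 2 at gsb, 1 at gsb-n and 1 at Wnt4. The gsb-n one is the strongest candidate of that gene, in intron 2. The Wnt4 one is 57 bp into the gene, with a pooled rank of 12530, and was found in replicate 4 alone (rank 5376). Of the 8 thresholded windows, 1 held CACGTG (mid), 1 held CACNAG (fz) and none held any of the others. The Su(H) site, the motif of the Notch pathway factor, was searched as TGTGAGAA, as TGTGGGAA, as CGTGAGAA and as CGTGGGAA. It was in 2.49% of all thresholded windows. Of the 139 candidate windows 2 held it (1.44%, beside 2.3% of all pooled ones), and neither was thresholded. These were the gsb-n candidate 397 bp upstream of the start site and one 6319 bp from the mid start site (rank 9069). At least 1 of the 3 family boxes was thus in 2 of 8, beside 37.0% of all thresholded windows. CTTTGAT lay in 2 of the 139 candidate windows and in 3.21% of all pooled ones. No match says only that these letters are not in the window.

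By rank within each replicate, 6 of the 8 thresholded summits were in the top 2487 of both, 1 of one and 1 of neither, and over the whole thresholded list 58.0% met the first of these. Taking the replicates on their own, 12 of the 2487 strongest of replicate 3 fell in the neighbourhoods, and 6 of them were among the strongest of replicate 4 (57.1% in the whole list). For 3 of the 12 replicate 4 had no candidate within 100 bp (18.8% in the whole list), and these are the fz and nkd sites named above. Of the 9 strongest of replicate 4, 6 were among the strongest of replicate 3 (57.1% in the whole list) and 2 had no candidate there (12.9% in the whole list). Of all 139 candidates, 42 had a summit within 100 bp in both replicates, 73 in one and 24 in neither. The share in both, 30.2%, stands beside 31.2% of all pooled candidates.

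**Figure D2:**
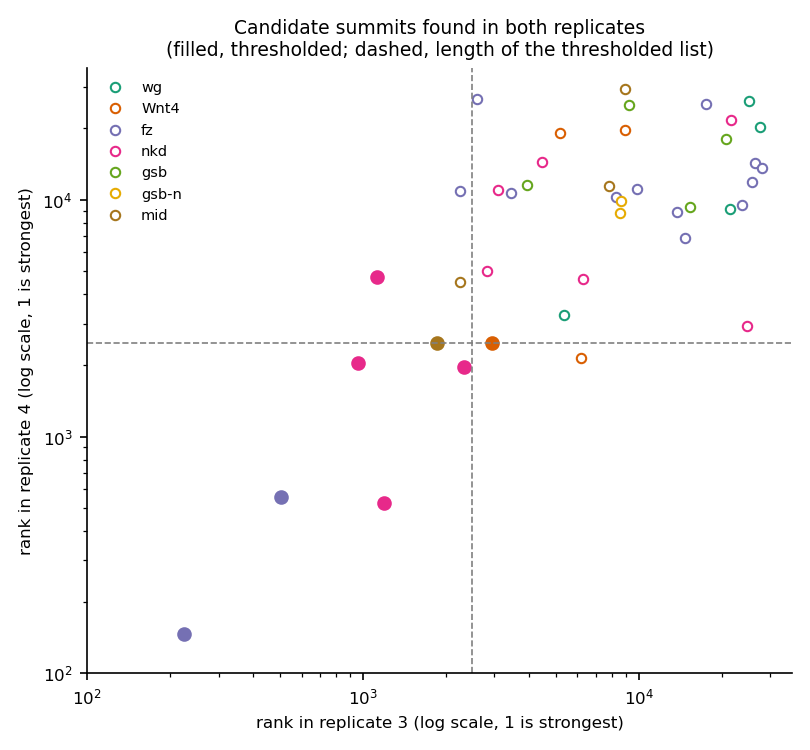
Rank in replicate 3 (horizontal axis, log scale) against rank in replicate 4 (vertical axis, log scale) for the 42 candidate summits of the 7 genes found in both, coloured by gene (the summits that gsb and gsb-n share have the gsb colour), with thresholded peaks filled and rank 2487 dashed. The stronger fz peak lies lowest on both axes, at ranks 225 and 147, and the Wnt4 peak lies just past both dashed lines.

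Other genes of the pathway were read from lists by role, which hold 64 genes with those above. Of 7 Wnt ligand genes none was bound, and Wnt2, Wnt6, Wnt10 and wntD had no candidate of any strength within 1 kb. Wnt6 had a thresholded summit 6061 bp into the gene in an intron, with a pooled signal of 170 (rank 1123), 88.4 in replicate 3 (rank 1280) and 87.0 in replicate 4 (rank 1172). Of the 6 genes for ligand processing and distribution, 3 were bound. These were dally and dlp, which encode cell surface heparan sulfate proteoglycans, with pooled signals of 222 and 119, and Notum, which encodes an enzyme that inactivates Wnt ligands, at 147. Of the 9 receptor genes, 3 were bound, fz2 (237), the co-receptor gene arr (220) and drl (138), which encodes a receptor for Wnt5. The fz2 summit counted here lay 2 bp from the start site, with ranks of 682 in replicate 3 and 686 in replicate 4, and was 1 of 4 thresholded summits in the neighbourhood of fz2. The 2 of fz both lay in introns. Of the 11 genes for cytoplasmic transducers and the complex that degrades Armadillo, 5 were bound, nkd, Axn (310), Apc (131), the kinase gene sgg (152) and the casein kinase gene gish (372).

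Of the 7 genes for nuclear factors, 2 were bound, the corepressor gene gro (174), which lies in the Enhancer of split complex, and the acetyltransferase gene nej (286). The pathway lists together gave 13 of 40 genes bound (32.5%), beside 11.9% of protein-coding genes. These lists were chosen with earlier results of these data known, and they include members, nkd being among the 13. A summit near any start site of a gene counted, and no share matched for the number of start sites was computed. For 11 of the 13, the start site nearest to the summit was the gene's own. The summit counted for Axn was 694 bp from it and 73 bp from Mgat2, and that for nej, at a distance of 690 bp, had the start of lncRNA:CR42657 at 433 bp; nej had a further thresholded summit 14 bp from a start site (rank 1207). The median pooled rank of the strongest candidate within 1 kb was 2874 over the 28 pathway genes that had one, beside 7348 over all 8021 protein-coding genes that did. Some were uneven between replicates: dlp ranked 3633 in replicate 3 and 1660 in replicate 4, and Apc 3234 and 1834. Others were stronger by rank in replicate 3. Among these, the summit counted for nej ranked 201 in replicate 3 and 1396 in replicate 4, drl 1394 and 2589, and sgg 1244 and 2148. Of 6 responsive or segment polarity transcription factor genes, 2 were bound, Dll (255) and slp1 (115), and slp1 ranked 6788 in replicate 3 and 1898 in replicate 4. Of 10 Pax genes 1 was bound, sv (152), and of 8 T-box genes 1, org-1 (343), which ranked 174 in replicate 3 and 456 in replicate 4.

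**Figure D3:**
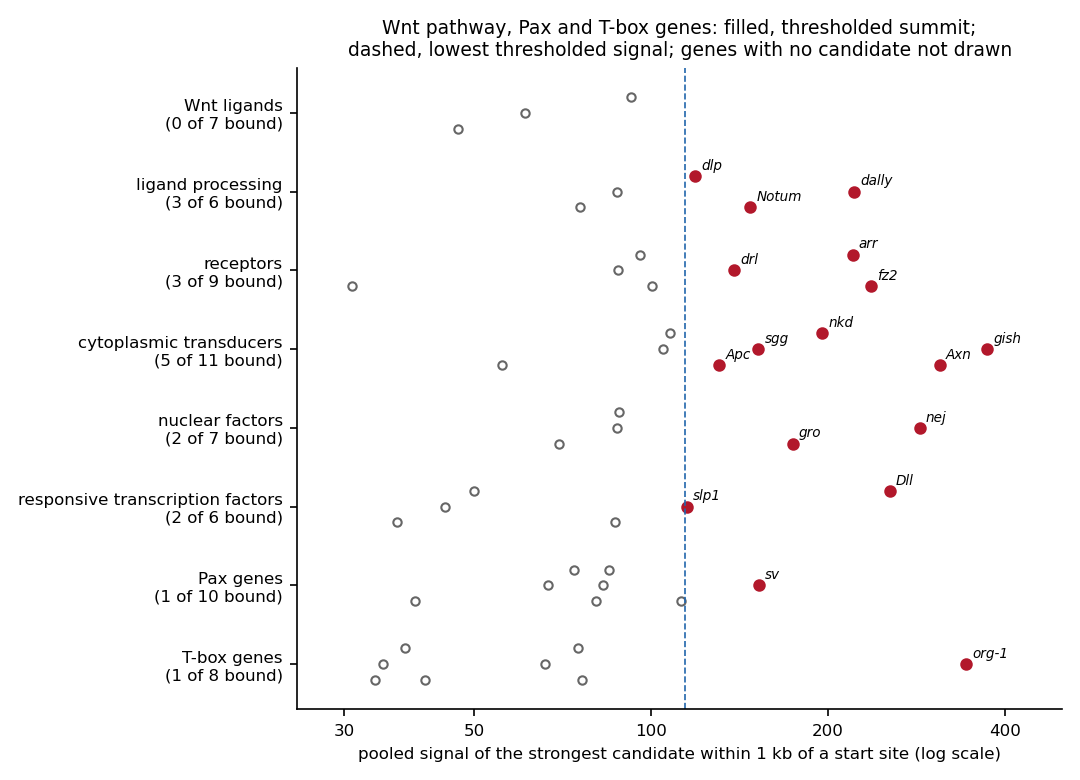
Pooled signal of the strongest candidate summit within 1 kb of a start site (horizontal axis, log scale, the authors' unit) for each gene, by list (vertical axis, with the number bound), with bound genes filled and named and the lowest thresholded signal of 114 dashed. The Wnt ligand list has no point past the line, and the strongest of the pathway lists is gish at 372.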

How the data were processed

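Per the labels, sonication gave chromatin fragments of 200 to 800 bp. Per the text files deposited with the lists, the authors called candidates on dm6 from replicate 3, from replicate 4 and from their pooled reads, with 1 control alignment for all, and derived the thresholded list from all 3 candidate lists. The sources used here do not name the aligner, caller or threshold. Each peak's deposited signal was set by the authors against the control on an unstated scale; lists were normalised separately, so signals were ranked within a list. The thresholded peaks were the 2487 pooled candidates of highest signal. The deposited −log10 q reached its top value in 3275 pooled candidates and was not used to rank.

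Summits (peak start plus offset) are 1-based on dm6. Start sites came from Ensembl release 115 and sequences from the RefSeq copy of the same assembly, and no peak passed a chromosome end. Summits within 100 bp were matched between lists, and motif windows were 201 bp. The members and lists were chosen with earlier results of these data known; 1 of 64 symbols was matched by ignoring case. Named genes are the members, the gene nearest to each of their thresholded summits, and bound genes of the lists; CG31909, H15, Wnt2, Wnt6, Wnt10, wntD, the genes of the closing section and those at the start sites nearest to summits of Axn and nej were named after their values were seen. Calls and motif search, checked on simulated data, recovered 200 of 200 planted summits and 200 of 200 planted motifs. The summits were planted within 1 kb of start sites, so this checks the code and not the choice of distance. CACGTG was the only motif planted, in windows otherwise of A and T, and the search for the other motifs was not checked in this way. Alternatives were other distances, matching rules and windows, the stronger part of the list and each replicate alone. Python 3.11.15, numpy 2.4.6, pandas 2.3.3 and matplotlib 3.10.9 were used.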

Additional observations from a re-analysis of the deposited data

How the results depend on the processing

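Counts that depend on distance moved with it: with thresholded summits allowed within 5 kb of a start site 2 of the 7 genes were bound (nkd and Wnt4) and 26 of the 64 listed genes, where 24.2% of protein-coding genes were, and within 10 kb 3 (with mid) and 31, where 36.9% were. Within 500 bp, within 2 kb and from the 5′ end of the gene, nkd was the single member bound. Of the 13945 protein-coding genes, 1394 were bound within 500 bp and 2098 within 2 kb. No such count was made for the 5′ end. Among the 1243 strongest thresholded peaks nkd was still bound, 10 listed genes were (5.99% of protein-coding genes) and 3 of the 8 summits were left. With the thresholded list, 17 of the 64 listed genes (26.6%) were bound. With the 2487 strongest of 1 replicate alone, from 1 to 2 members were bound, fz being added in replicate 4, and from 15 (replicate 3) to 20 (replicate 4) listed genes, where 12.2% of protein-coding genes were bound in replicate 3 and 11.5% in replicate 4. From 9 to 12 summits then lay in the neighbourhoods. Matching within 50 bp left 23 candidates found in both replicates and within 200 bp 65, beside 42 at 100 bp. Windows of 50 bp to each side left 1 thresholded summit with a family box, that of mid, in place of 2. The other alternatives moved no count by over 1.5 times. With 1 group, a thresholded list that equals the strongest pooled peaks, and unknown depth, a site below the threshold cannot be called absent.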

Other observations

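The other thresholded windows with CACGTG at 2 places lay near ey, a Pax gene of eye development, 1630 bp from its start site (pooled signal 129, rank 1972, with 1 of its copies in the form GGCACGTG), and near asRNA:CR31429 (pooled signal 199, rank 837, with neither copy in that form). The Pax gene eyg stood just outside the threshold, with its strongest candidate within 1 kb at rank 2558 of the pool. That candidate had a signal of 104 in replicate 4 (rank 779), and replicate 3 had none within 100 bp. The Pax gene Poxm showed the reverse, with a signal of 103 in replicate 3 (rank 932), none within 100 bp in replicate 4 and a pooled rank of 4473. These genes were picked after their values had been seen.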
